A study of Mus musculus with 16 samples.

Results

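Osteoglycin (Ogn), decorin (Dcn), biglycan (Bgn), prolargin (Prelp), asporin (Aspn) and fibromodulin (Fmod) are small leucine-rich proteoglycans, and these 6 genes of the 31053 in the deposited count matrices are described here across the cell classes of the mouse kidney. They were taken by symbol, and their UMIs (counts of single captured RNA molecules) were summed over the cells of each class in each library and given as CPM, the gene's UMIs per 1000000 UMIs of that class. The genes were chosen by their measured levels in mesangial-like cells of diabetic and control mice, so those differences are given as a description with no test. Tests are given for other cell classes, for age, for sex and for other gene lists. Those lists too were chosen with earlier results of these data known.

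The series compared glomerulus-enriched single-cell libraries of a mouse model of diabetic nephropathy with those of control mice, 1 library per mouse. Diabetic (DN) mice were BTBR ob/ob, homozygous for a mutation of the leptin gene, and control mice were BTBR +/+ with intact leptin. Both genotypes carried, by the study's methods, a ROSA26 tdTomato/EGFP reporter switched by a podocyte-specific Cre, and both kidneys of a mouse were taken without the papilla, depleted of proximal tubule on Percoll and dissociated by a brief collagenase step and a cold-active protease. Each of the 8 groups, female or male, control or DN, 6 or 12 weeks old, held 2 mice, so that 4 control and 4 DN libraries stood against each other at each age.

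Of 116439 barcodes, 84975 cells passed the filters and 72780 of them fell into 15 named classes. Mesangial-like cells numbered 4091, all 7 of the markers used to name them were detected, and their median depth was 4113 UMIs. Smooth muscle and renin-like cells numbered 1801 with all 8 markers detected and a median of 6243 UMIs. The libraries of 12 mice held 83410397 to 125551519 UMIs and those of the other 4, which were replicate 1 of each female group, held 10510855 to 21728793 UMIs. Pairs within the 12 shared 7 to 32 cell barcodes and pairs within the 4 shared 23 to 55, while pairs across the 2 sets shared 0 to 3. Values within the 12 libraries are given for the main genotype differences of the members, and not for the gene lists, and the set of 4, with 1 library per group, was not tested on its own.

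Small leucine-rich proteoglycans are secreted proteins with a curved core of leucine-rich repeats, most of which bind fibrillar collagen and set how collagen fibrils grow and space themselves. Dcn, Bgn and Aspn belong to one class of the family, Fmod and Prelp to another, and Ogn to a class apart from both. Dcn and Bgn carry chondroitin or dermatan sulfate chains, Fmod carries keratan sulfate, and Dcn and Bgn also bind TGF-beta. In the kidney, mesangial cells are the contractile pericytes that hold the glomerular capillaries together, and they lay down the mesangial matrix that expands in diabetic nephropathy.

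Each gene had its own distribution over the classes. Over all kept cells there were 52568 UMIs of Bgn, 8039 of Dcn, 4790 of Aspn, 3995 of Ogn, 635 of Fmod and 316 of Prelp. Mesangial-like cells held 54.2% of the Bgn UMIs, 46.5% of those of Prelp, 38.2% of Ogn, 37.8% of Dcn, 9.76% of Fmod and 2.90% of Aspn. Smooth muscle and renin-like cells held 89.8% of Aspn and 48.3% of Ogn, type B intercalated-like cells held 42.8% of Dcn, and descending loop-of-Henle-like cells held 60.3% of Fmod. Cells of unnamed clusters held between 4.56% (Ogn) and 16.1% (Fmod). These shares follow the number and depth of the cells captured in each class as well as the level of the gene.

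Ogn and Aspn are neighbours on mouse chromosome 13. Ogn (ENSMUSG00000021390.6) lies on the plus strand at chr13:49608046-49624501 of GRCm38 with 1 annotated transcript of 7 exons and 2566 bases, and Aspn (ENSMUSG00000021388.14) at chr13:49544443-49567565 on the same strand, 40481 bases away. Cenpp, a centromere protein gene on the minus strand at chr13:49464023-49652785, spans both and overlaps their exons, and whether counting used strand is not given in the sources used here. Cenpp had 1186 UMIs in kept cells. The 2 genes shared smooth muscle and renin-like cells but not mesangial-like cells, and the 250 bases before each RefSeq start (GRCm38.p6, plus strand; chr13:49607765-49608014 for Ogn and chr13:49544193-49544442 for Aspn) are printed to show how the promoters of these neighbours differ, with capitals marking matches to GGAATG (the TEAD motif), TGANTCA (AP-1), the CArG box (serum response factor) or TATAAA on either strand.
Ogn: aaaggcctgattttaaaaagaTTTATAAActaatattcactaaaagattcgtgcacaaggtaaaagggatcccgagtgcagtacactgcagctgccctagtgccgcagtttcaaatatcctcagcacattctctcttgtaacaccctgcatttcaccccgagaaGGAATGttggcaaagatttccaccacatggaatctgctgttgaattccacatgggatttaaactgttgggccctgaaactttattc
Aspn: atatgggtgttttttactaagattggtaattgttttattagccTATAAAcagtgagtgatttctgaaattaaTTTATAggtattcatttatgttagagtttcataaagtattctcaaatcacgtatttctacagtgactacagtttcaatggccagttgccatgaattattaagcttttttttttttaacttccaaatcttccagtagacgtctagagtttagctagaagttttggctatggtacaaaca

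The Ogn window held 1 GGAATG, 86 to 81 bases before the start, which 12.6% of 32851 mouse promoters of the same length hold at least once, and the Aspn window held none. Both windows held 2 matches to TATAAA (12.4% of promoters hold one), those of Ogn overlapping at 229 to 224 and 227 to 222 bases before the start and those of Aspn lying at 207 to 202 and 178 to 173 bases. The E-box CANNTG, left in lower case, occurred 3 times before Ogn and 1 time before Aspn and is in 66.2% of promoters. Neither window held TGANTCA (6.75% of promoters) or a CArG box (1.47%). A match of letters is not a bound site, and the absence of one concerns these 250 bases only.

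Ogn, whose product binds collagen fibrils, was higher in every DN library than in any control library in mesangial-like cells and lower in DN in smooth muscle and renin-like cells. At 6 weeks the mesangial-like cells of control mice held 6.45, 17.0, 7.57 and 12.0 CPM (female replicates 1 and 2, then male replicates 1 and 2, the order used throughout), and those of DN mice held 69.5, 170, 47.6 and 128 CPM. At 12 weeks the values were 7.01, 4.12, 10.7 and 24.5 CPM in control and 42.5, 140, 55.1 and 105 CPM in DN. The groups did not overlap at either age, and of the 2 mice of each DN group that with replicate number 2 was the higher. The means went from 10.8 ± 4.79 to 104 ± 55.7 CPM at 6 weeks and from 11.6 ± 9.02 to 85.8 ± 45.2 CPM at 12 weeks (SD, n = 4 each), fitted log2 differences of 3.24 ± 0.55 and 2.95 ± 0.50 (edgeR estimate ± SE) or 9.46-fold and 7.73-fold. These values chose the gene and are not tested. The control values rest on few molecules, 30 UMIs at 6 weeks and 56 at 12 weeks against 543 and 899 in DN. Within the 12 libraries of the larger set the differences were 3.33 and 2.98.

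Few cells held much of the Ogn of control mesangial-like cells. Cells with a UMI of any of 9 fibroblast genes (Dpt, Clec3b, C7, Mfap4, Scara5, Mfap5, Apod, Lum or Col1a1) numbered 12 of 1603 control mesangial-like cells and held 53 of their 86 Ogn UMIs (61.6%). They numbered 32 of 2488 DN cells and held 238 of 1442 Ogn UMIs (16.5%). Without them, an alternative chosen after seeing the data, the log2 differences were 3.93 at 6 weeks and 4.23 at 12 weeks. Without the shallow mesangial-like cluster (732 cells, median 898.5 UMIs), they were 4.19 and 4.23, and the deeper cluster held 4.24 ± 1.48 and 4.73 ± 2.41 CPM in control and 84.9 ± 38.3 and 79.3 ± 45.7 CPM in DN at 6 and 12 weeks (SD, n = 4 each). The summed level of these 9 genes over all mesangial-like cells was 29.2 to 249.3 CPM in control (median 126) and 7.54 to 419 CPM in DN (median 218) at 6 weeks, with Scara5 and Apod at 0 in control. At 12 weeks it was 0 to 40.1 CPM in control (median 17.1) and 0.392 to 352 CPM in DN (median 22.4), with C7 and Mfap4 at 0 in control. The fibroblast markers used to name clusters, with Pdgfra and Pi16 in place of Lum and Col1a1, summed to 121 to 219 and 101 to 446 CPM at 6 weeks and to 102 to 209 and 105 to 343 CPM at 12 weeks, of which Pdgfra made up 104 and 102 CPM on average at 6 weeks and 140 and 120 CPM at 12 weeks in control and DN.

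Other markers moved in the same cells. The sum of 5 smooth muscle and renin markers (Acta2, Tagln, Myh11, Cnn1 and Ren1) in mesangial-like cells was 21.6 to 310 CPM in control and 537 to 8174 CPM in DN at 6 weeks, and 17.5 to 448 against 262 to 1145 CPM at 12 weeks, with Cnn1 at 0 in control. Ren1 made up much of this sum, with means of 71.3 and 2446 CPM in control and DN at 6 weeks (up to 7553 CPM in DN). At 12 weeks Ren1 averaged 88.5 and 364 CPM. Among the 5 markers Acta2, smooth muscle actin, was higher in DN, with log2 differences of 3.07 ± 0.53 at 6 weeks (edgeR, adjusted p = 0.0212) and 2.05 ± 0.48 at 12 weeks (adjusted p = 0.0260). Tagln differed by 2.70 ± 0.55 at 6 weeks (edgeR, adjusted p = 0.0521) and was called at 12 weeks (1.97 ± 0.49, adjusted p = 0.0383). Ren1 was not called at 6 or 12 weeks (edgeR, adjusted p = 0.692 and 0.586). Markers of the same class outside the sum did not all rise. At 12 weeks Mustn1 was lower in DN (log2 difference -1.22, edgeR, adjusted p = 0.0114), while Rgs5 (1.12, adjusted p = 0.105) and Akr1b7 (-0.04) were not called. The mesangial-like cells' own markers summed to 15590 to 17860 CPM in control and 14360 to 17870 CPM in DN over both ages, but not all of them stood alike. Serpine2 was higher in DN at 12 weeks (3374 ± 1105 to 6159 ± 1877 CPM; log2 difference 0.96, edgeR, adjusted p = 0.0431), while Ptn was at 4817 to 5327 CPM in control and 3116 to 3252 CPM in DN (log2 difference -0.65, adjusted p = 0.0531). Pdgfrb averaged 1291 and 895 CPM (adjusted p = 0.551), and the other 4 markers had adjusted p from 0.644 to 1. The part of these markers in the Ogn difference was not tested.

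The share of mesangial-like cells with an Ogn UMI averaged 3.52% and 1.55% per control library and 27.6% and 21.4% per DN library at 6 and 12 weeks. Thinning to 1000 UMIs per cell, here and below, leaves out cells with fewer UMIs. It kept 3618 of 4091 mesangial-like and 15025 of 17403 proximal tubule-like cells. After it the mesangial-like shares were 1.45% and 0.761% in control against 8.30% and 5.67% in DN. In proximal tubule-like cells, taken as the comparator for free RNA, with a median of 8479 UMIs, thinned shares were 0.0451% and 0.0206% in control and 0.0691% and 0.0684% in DN. Without thinning, 0.0992% and 0.0898% of control and 0.816% and 0.618% of DN proximal tubule-like cells held an Ogn UMI. The comparator itself differed by genotype, at 0 to 0.2204 CPM of Ogn in control libraries and 0.248 to 1.88 CPM in DN libraries, on 5 UMIs at each age in control and 46 and 39 in DN. It was also uneven over its clusters, at 1.49 CPM of Ogn in a cluster of 3666 cells and 0.0635 CPM in a deeper one of 4674 cells. Whether the comparator measures free RNA alone was not tested. The mesangial-like shares lay above those of the comparator in both genotypes.

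In smooth muscle and renin-like cells Ogn went the other way. At 6 weeks control libraries held 189, 256, 154 and 250 CPM and DN libraries 67.2, 165, 64.1 and 91.1 CPM, and each DN mouse was below the control mouse of the same sex and replicate number although the ranges met. At 12 weeks control held 124, 186, 210 and 244 CPM and DN 37.3, 84.9, 57.6 and 92.7 CPM, with no overlap. The log2 difference was -1.11 ± 0.26 at 6 weeks, from 212 ± 49.6 to 96.8 ± 46.9 CPM (adjusted p = 0.364, edgeR quasi-likelihood test with Benjamini-Hochberg adjustment over 8044 genes), and -1.37 ± 0.28 at 12 weeks, from 191 ± 50.7 to 68.1 ± 25.5 CPM (adjusted p = 0.0363), or 2.58-fold lower. Of the genes tested in this class, 0.0249% were called at 6 weeks and 0.224% at 12 weeks, and of the 3 members tested (Ogn, Aspn and Bgn) 1 was called, at 12 weeks only. With the replicate number as a block, the log2 difference of Ogn was -1.07 at 6 weeks (adjusted p = 3.3e-05) and -1.38 at 12 weeks (adjusted p = 2.8e-06), in a fit that called 0.808% and 3.79% of genes. Within the 12 libraries of the larger set Ogn passed the threshold at 6 weeks (adjusted p = 0.0385) and at 12 weeks (adjusted p = 0.0046), where 0.181% and 1.01% of genes were called.

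**Figure D1:**
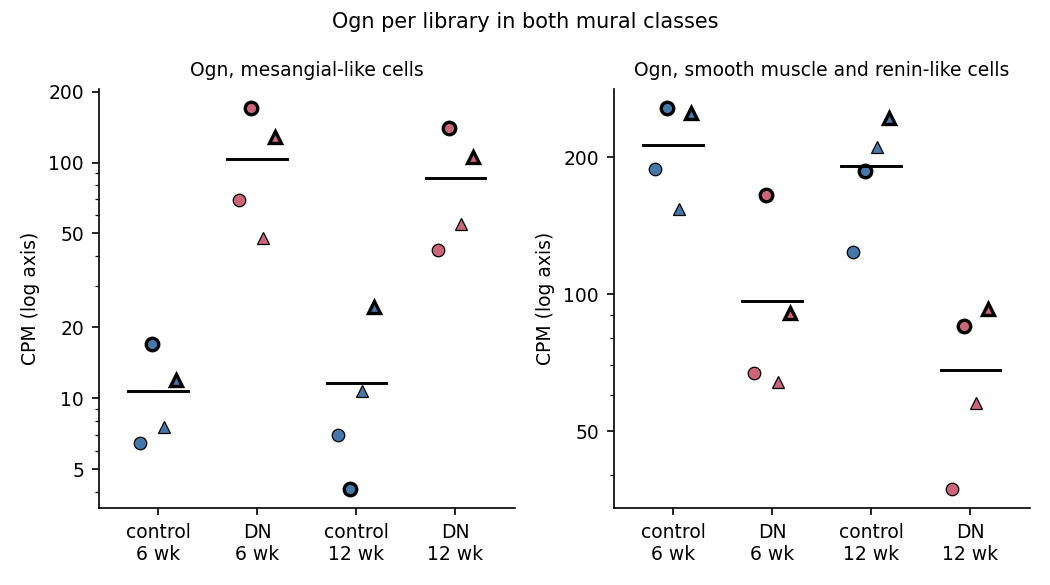
Ogn in CPM (log axis) in each library for mesangial-like cells and for smooth muscle and renin-like cells, by genotype and age; circles are female and triangles male mice, a thick outline marks replicate 2, and the bar is the mean of 4 libraries. In mesangial-like cells every DN library (42.5 to 170 CPM) lies above every control library (4.12 to 24.5 CPM), and in smooth muscle and renin-like cells the DN means (96.8 and 68.1 CPM) lie below the control means (212 and 191 CPM).

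The 12-week call depended on single libraries. Leaving out 1 library at a time kept the sign in all 16 fits (log2 difference -1.62 to -1.22) and kept the call in 8 of them (adjusted p 0.0114 to 0.212). It was lost without control female replicate 2, control male replicate 1 or 2, DN female replicate 1 or DN male replicate 1 or 2 of 12 weeks, and without DN male replicate 1 or 2 of 6 weeks. Without cells holding a fibroblast UMI the difference was -1.22 with an adjusted p of 0.0737. The same 9 genes summed in this class to 9.93 to 27.8 CPM in control and 11.9 to 28.5 CPM in DN at 6 weeks, and to 5.01 to 23.2 against 5.32 to 40.04 CPM at 12 weeks, with Dpt, Clec3b, C7, Mfap4, Mfap5 and Lum at 0 in every group. Pi16, a further fibroblast marker, reached 149 CPM in 1 control library at 6 weeks.

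Renin-rich cells held little Ogn and were more of the class in DN. They numbered 64 at 6 weeks and 46 at 12 weeks in control, beside 483 and 394 cells of lower Ren1, and 111 and 61 in DN, beside 411 and 231. Ren1 in the class averaged 12420 and 16710 CPM in control and DN at 6 weeks and 7528 and 19650 CPM at 12 weeks (log2 difference 1.43 ± 0.42 at 12 weeks, edgeR, adjusted p = 0.225). Among cells with at least 100 Ren1 UMIs per 10000 (282 of 1801, with 165 cells within 2-fold of that limit), pooled Ogn was 17.3 and 35.1 CPM in control and 34.0 and 34.2 CPM in DN at 6 and 12 weeks. Among cells below the limit it was 260 and 229 CPM in control and 136 and 95.9 CPM in DN. The 12-week difference in the latter cells was -1.22 (adjusted p = 0.145), so Ogn stayed lower in DN without the renin-rich cells but was not called. The part of the renin-rich cells in the difference of the whole class was not tested beyond these values.

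The ratio of Ogn to Aspn UMIs compares the neighbours within the same cells and is free of library scaling. Smooth muscle and renin-like cells held 1279 Ogn for 1671 Aspn UMIs in control (0.765) and 651 for 2629 in DN (0.248). In the deeper mesangial-like cluster there were 31 for 9 in control (3.44), few molecules, and 1232 for 51 in DN (24.2). DN female replicate 2 of 6 weeks held more of these Aspn UMIs than any other DN library, and without it, a choice made after seeing the data, there were 1150 for 23 (a ratio of 50) in the cluster and 391 for 2010 (0.195) in smooth muscle and renin-like cells. The ratio was thus lower in DN in one class and higher in the other. Whether the Ogn difference itself was unlike in the 2 classes was not tested.

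Aspn, a collagen-binding member that also binds TGF-beta, was the member most confined to 1 class. It averaged 366 ± 85.8 CPM (SD, n = 16; 234 to 530) in smooth muscle and renin-like cells, a range that did not meet that of any other class, and no UMI of it was found in arterial or glomerular endothelial-like cells. Libraries held 447, 313, 348 and 260 CPM in control and 530, 392, 418 and 382 CPM in DN at 6 weeks, and 418, 234, 288 and 258 against 463, 303, 350 and 452 CPM at 12 weeks. Each DN mouse was above its control partner at both ages, but the groups overlapped. The log2 differences were 0.39 ± 0.23 (edgeR, adjusted p = 1) and 0.49 ± 0.24 (adjusted p = 0.702). With the replicate number as a block the 12-week difference was 0.51 ± 0.13 (adjusted p = 0.0131) and the 6-week one remained uncalled (adjusted p = 0.121). Within the larger set the differences were 0.41 and 0.57 (adjusted p = 0.767 and 0.154). Before thinning 66.5% and 56.1% of control and 75.6% and 73.7% of DN smooth muscle and renin-like cells held an Aspn UMI at 6 and 12 weeks, against at most 0.203% of proximal tubule-like cells on average. After thinning, 29.8% and 22.0% of control and 34.7% and 33.8% of DN cells did.

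In mesangial-like cells Aspn was scarce, at group means of 5.11 and 1.56 CPM in control and 19.0 and 5.61 CPM in DN at 6 and 12 weeks, and the cells with a fibroblast UMI held 17 of its 27 control UMIs and 81 of its 112 DN UMIs there. Renin-rich cells held less Aspn than the other cells of their class, with pooled values of 161 and 110 against 327 and 284 CPM in control.

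Bgn (ENSMUSG00000031375.17, chrX:73483602-73495933, plus strand), which binds collagen and TGF-beta and can signal through toll-like receptors once released, was abundant in mesangial-like cells of both genotypes. At 6 weeks control libraries held 1052, 888, 1091 and 1165 CPM and DN libraries 1173, 1152, 1246 and 1381 CPM. At 12 weeks control held 827, 1151, 955 and 1033 CPM and DN 1069, 1622, 1266 and 1439 CPM. Each of the 4 DN mice of an age was above its control partner of the same sex and replicate number, while the groups overlapped at both ages, with means of 1049 ± 117 and 1238 ± 103 CPM at 6 weeks and 992 ± 136 and 1349 ± 237 CPM at 12 weeks, log2 differences of 0.27 ± 0.16 and 0.49 ± 0.16 (0.32 and 0.50 within the larger set) that chose the gene and are not tested. Bgn in smooth muscle and renin-like cells was 689 ± 49.8 and 707 ± 64.2 CPM at 6 weeks (log2 difference 0.07 ± 0.23, edgeR, adjusted p = 1) and 534 ± 145 and 745 ± 236 CPM at 12 weeks (0.54 ± 0.23, adjusted p = 0.585; adjusted p = 0.0019 with the replicate number as a block). Within the larger set these were 0.12 and 0.57 (adjusted p = 1 and 0.0885).

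The largest differences of Bgn among the classes tested were in glomerular endothelial-like cells, where the level was lower. In the 6144 glomerular endothelial-like cells, which line the filtering capillaries, control libraries held 27.7, 42.4, 20.4 and 31.8 CPM and DN libraries 65.6, 122, 121 and 255 CPM at 6 weeks. At 12 weeks control held 26.0, 146, 32.7 and 81.2 CPM and DN 158, 370, 216 and 387 CPM. Every DN library lay above every control library of its age. The log2 differences were 2.13 ± 0.48 at 6 weeks (30.6 ± 9.20 to 141 ± 80.7 CPM) and 2.18 ± 0.49 at 12 weeks (71.6 ± 55.6 to 283 ± 113 CPM), neither called by edgeR (adjusted p = 0.516 and 0.178). Within the larger set of libraries both were called (adjusted p = 0.0216 and 0.0433), where 0.234% and 0.192% of genes were. They were also called with the replicate number as a block (adjusted p = 4.7e-06 and 6.0e-07, with 1.45% and 2.99% of genes called) and by DESeq2 (adjusted p = 0.0179 and 0.0114, with 0.0644% and 0.354%).

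Arterial endothelial-like cells, 504 in all, held 435, 492, 506 and 548 CPM of Bgn in control and 563, 873, 1025 and 1732 CPM in DN at 6 weeks, again without overlap. At 12 weeks the 3 control libraries with at least 10 such cells held 361, 385 and 483 CPM and the 3 DN libraries 554, 975 and 885 CPM. The log2 differences were 1.06 ± 0.24 (edgeR, adjusted p = 0.285; 0.0015 with the replicate block and 0.0391 in the larger set, which called 0.749% and 0.0892% of genes) and 1.04 ± 0.30 (adjusted p = 0.670; 0.101 with the block and 0.6835 in the larger set).

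Over the 12 classes other than the mural ones, 0.0632% of gene tests were called at 6 weeks and 0.159% at 12 weeks, and members passed the low-count filter in 8 cases. None of the 8 was called at either age by the edgeR fit without a replicate block. The fit with the block called 1308 and 2779 gene tests in these classes, against 71 and 178 without it. Its calls held Bgn in glomerular endothelial-like cells at both ages and in arterial endothelial-like cells at 6 weeks. They also held Fmod in descending loop-of-Henle-like cells at 12 weeks, given below. Besides endothelial-like cells, Bgn was tested in podocyte-like, proximal tubule-like, connecting tubule-like and immune cells. The largest difference among those was in podocyte-like cells at 12 weeks, 1.61 ± 0.59 on the log2 scale (edgeR, adjusted p = 0.599).

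**Figure D2:**
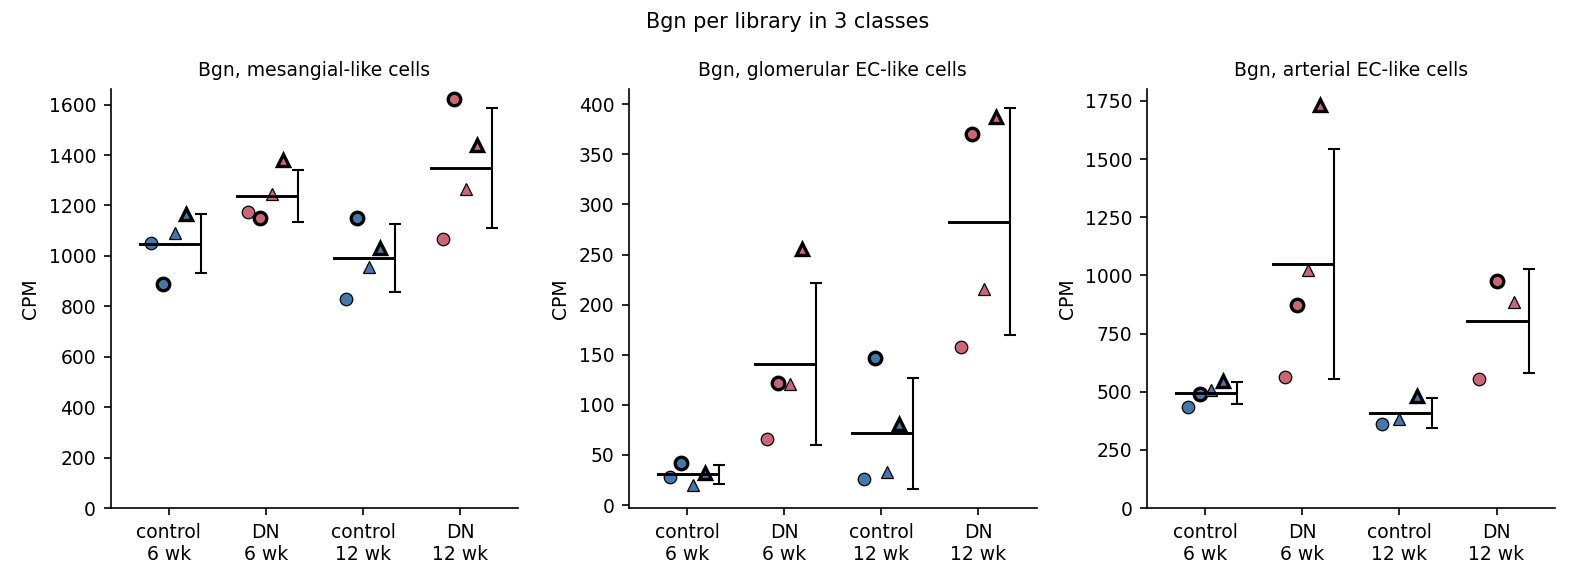
Bgn in CPM (linear axes from 0) in each library for mesangial-like, glomerular endothelial-like and arterial endothelial-like cells; bars are means, whiskers the SD, circles female and triangles male mice, thick outlines replicate 2. In glomerular endothelial-like cells the DN libraries lie at 65.6 to 255 CPM at 6 weeks and 158 to 387 CPM at 12 weeks, above all control libraries of the same age.

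Mesangial RNA in the endothelial-like cells was measured beside these values. The 7 mesangial markers summed to 134 to 255 CPM in control and 181 to 297 CPM in DN glomerular endothelial-like cells at 6 weeks, and to 141 to 225 and 195 to 294 CPM at 12 weeks, with none of them at 0. Serpine2 alone was 26.2 to 70.6 against 77.5 to 222 CPM at 6 weeks and 32.5 to 58.5 against 89.2 to 227 CPM at 12 weeks, while the other 6 summed to 83.0 to 206 against 75.1 to 122 CPM and 108 to 176 against 67.4 to 136 CPM. Without the cells that held a UMI of any of 15 mural markers, Bgn was 26.0 ± 9.87 and 56.1 ± 42.6 CPM in control and 167 ± 140 and 284 ± 154 CPM in DN (SD, n = 4 each). That left 978 of 1576 control cells at 6 weeks and 897 of 1476 at 12 weeks. In DN it left a smaller share, 817 of 1774 and 547 of 1318 cells, so more DN cells held mural RNA. The log2 differences were then 2.57 ± 0.49 and 2.65 ± 0.51, as large as with those cells (edgeR, adjusted p = 0.163 and 0.159). With the replicate block they were 2.39 and 2.56 and both were called (adjusted p = 7.3e-08 and 5.1e-09, with 0.726% and 1.86% of genes called).

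The same measures were taken in arterial endothelial-like cells. The mesangial markers summed to 30.6 to 56.4 CPM in control and 44.5 to 226 CPM in DN at 6 weeks, and to 28.1 to 131 and 48.3 to 103 CPM at 12 weeks, where 1 marker was at 0 in control and 3 in DN. Without cells holding a mural UMI few libraries kept 10 cells. At 6 weeks Bgn was then 475 and 488 CPM in 2 control libraries and 442 CPM in 1 DN library. At 12 weeks it was 219 and 239 CPM in 2 control libraries and 564 CPM in 1 DN library. With 1 DN library at each age, these values neither show the Bgn difference of the class nor its absence.

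The share of glomerular endothelial-like cells with a Bgn UMI, thinned to 1000 UMIs per cell from a median of 3464, was 2.38% and 7.69% in control and 12.8% and 21.7% in DN at 6 and 12 weeks. Unthinned shares were 11.8% and 19.8% against 38.1% and 52.6%. Proximal tubule-like cells had thinned shares of 0.309% and 0.0552% in control and 0.247% and 0.199% in DN (0.792%, 0.699%, 1.36% and 2.00% unthinned).

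Dcn (ENSMUSG00000019929.16, chr10:97479609-97518143, plus strand), a collagen-binding proteoglycan that also binds TGF-beta, was split between 2 classes and all but absent from smooth muscle and renin-like cells, where 6 UMIs were found. In mesangial-like cells control libraries held 38.7, 103, 103 and 149 CPM and DN libraries 320, 374, 106 and 147 CPM at 6 weeks. At 12 weeks control held 17.5, 30.2, 62.7 and 135 CPM and DN 156, 88.6, 77.4 and 325 CPM. Both ages overlapped, and at 6 weeks the 2 female DN libraries stood above all others while the 2 male DN libraries lay within the control range. Means were 98.3 ± 45.3 and 237 ± 131 CPM at 6 weeks and 61.4 ± 52.7 and 162 ± 114 CPM at 12 weeks, and the fitted log2 differences of 1.10 ± 0.50 and 1.53 ± 0.51 chose the gene and are not tested. Within the larger set they were 0.71 and 1.21.

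Few cells also held much of the mesangial-like Dcn. The 12 control cells with a fibroblast UMI held 453 of 586 Dcn UMIs (77.3%) and the 32 DN cells held 1276 of 2449 (52.1%). In the shallow cluster pooled Dcn was 1773 CPM, yet 5.60% of its cells held a UMI of it. Without the shallow cluster Dcn was 19.8 ± 17.2 and 18.2 ± 9.43 CPM in control and 66.4 ± 34.5 and 74.8 ± 12.2 CPM in DN at 6 and 12 weeks (SD, n = 4 each), log2 differences of 1.88 and 2.17. The DN difference was larger in females than in males by 1.67 ± 0.61 on the log2 scale (edgeR, adjusted p = 1; adjusted p = 0.0187 with the replicate block, which called 0.116% of genes), and by 0.25 ± 0.47 without the cells holding a fibroblast UMI (adjusted p = 1). This contrast splits the values that chose the gene, and in females the block is also the library set. Its call with the block is therefore read as a description.

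**Figure D3:**
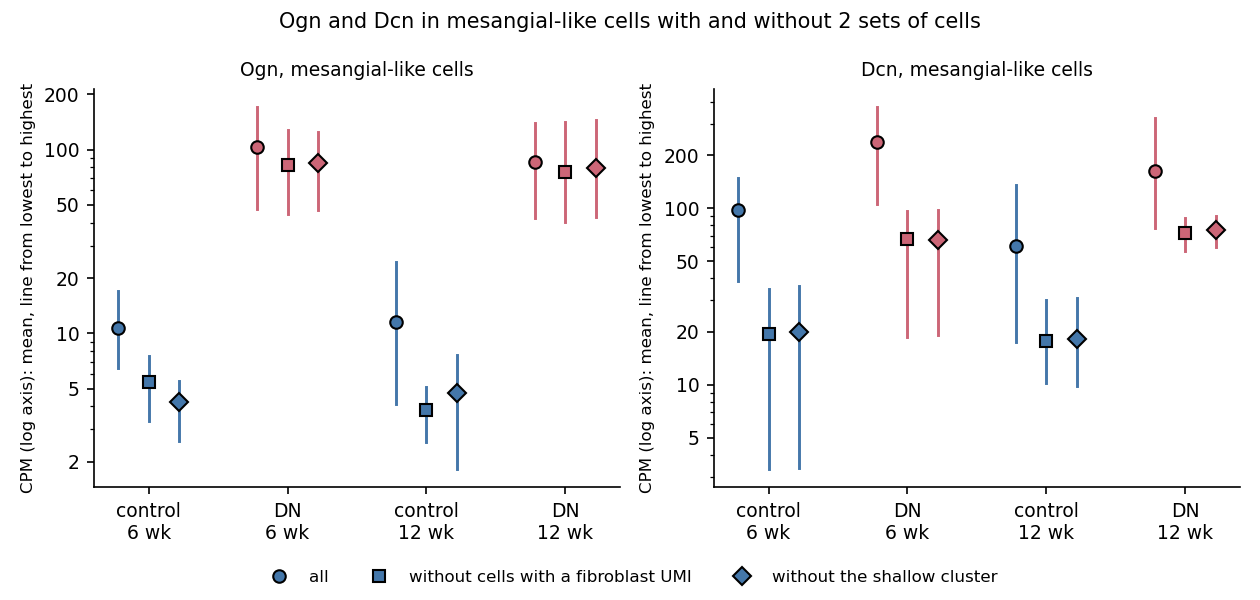
Ogn and Dcn in mesangial-like cells in CPM (log axes), with all cells, without cells holding a fibroblast UMI and without the shallow cluster; points are means of 4 libraries and lines run from the lowest to the highest library. For Dcn at 12 weeks the control mean goes from 61.4 CPM with all cells to 18.2 CPM without the shallow cluster, and for DN from 162 to 74.8 CPM.

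Within mesangial-like cells Dcn and Ogn were often found together. Of DN cells with an Ogn UMI, 43.5% also held a Dcn UMI, against 17.9% of those without Ogn. In control the shares were 42.4% and 5.16%. Cells with an Ogn UMI were deeper, with medians of 8458 against 3737 UMIs in DN and 8770 against 3433 UMIs in control, and the part of depth in these shares was not tested.

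By share of UMIs, the other main site of Dcn was the type B intercalated-like class, cells of the collecting system that secrete bicarbonate, with 5034 cells and 31.6 ± 8.74 CPM (SD, n = 16, range 18.3 to 49.8). The related type A intercalated-like cells, which secrete acid, held 0.369 CPM. By level the few dividing cells stood higher, at means of 57.2 CPM in control at 6 weeks (n = 2) and 92.3 and 104 CPM in DN at 6 and 12 weeks (n = 2 and 3). Within type B intercalated-like cells 1 cluster of 775 cells, led by 4930469K13Rik, Hmx2, Rorb, Sh2d4b and Syt7, held 161 CPM with a Dcn UMI in 55.9% of cells, and the other clusters of 3101 and 1158 cells held 20.6 and 15.5 CPM. Control libraries of the whole class held 33.0, 31.7, 22.3 and 29.7 CPM and DN libraries 18.3, 28.6, 23.0 and 27.0 CPM at 6 weeks, and 41.8, 49.8, 38.0 and 34.7 against 19.5, 29.6, 42.5 and 35.8 CPM at 12 weeks. The groups overlapped at both ages, with log2 differences of -0.19 ± 0.20 and -0.33 ± 0.18 (edgeR, adjusted p = 1 for both) and -0.10 and -0.17 within the larger set. In the cluster of 775 cells Dcn was 171 ± 64.7 and 178 ± 10.5 CPM in control and 128 ± 59.4 and 134 ± 16.9 CPM in DN at 6 and 12 weeks. There the groups overlapped at 6 weeks (98.2 to 243 and 43.3 to 181 CPM) and did not at 12 weeks (168 to 193 and 116 to 153 CPM), which was not tested. The 6-week and 12-week control libraries did not differ beyond the threshold either (log2 difference 0.51 ± 0.19, adjusted p = 1).

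The share of cells with a Dcn UMI lay above that of proximal tubule-like cells, which are shallower (medians of 19190 and 8479 UMIs). Of type B intercalated-like cells, 23.3% and 29.0% per control library and 21.3% and 28.1% per DN library held a Dcn UMI at 6 and 12 weeks (4.12% and 4.12%, and 2.20% and 4.13%, after thinning), against 0.166%, 0.154%, 0.190% and 0.202% of proximal tubule-like cells.

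Fmod (ENSMUSG00000041559.7, chr1:134037254-134048277, plus strand), which binds collagen fibrils and modulates their assembly, was concentrated in 1610 descending loop-of-Henle-like cells, the thin limb that lets water out of the tubule. Within them a cluster of 497 cells led by Uncx, Corin and Npy held 72.3 CPM, with a UMI in 22.1% of its cells, and the other cluster of 1113 cells held 1.18 CPM. Control libraries held 17.0, 6.01, 31.8 and 63.4 CPM and DN libraries 3.37, 39.6, 15.99 and 38.9 CPM in the whole class at 6 weeks. At 12 weeks control held 24.4, 41.8, 35.8 and 50.2 CPM, and DN held 0, 0, 7.64 and 6.51 CPM, where the 2 counts of 0 allow up to 5.28 and 13.4 CPM (3 counts, counting error only).

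Fmod overlapped between the genotypes at 6 weeks and did not at 12 weeks. The UMIs behind these values were 135 in control and 96 in DN at 6 weeks and 139 and 13 at 12 weeks. The log2 difference was -0.28 ± 0.52 at 6 weeks (edgeR, adjusted p = 1) and -2.96 ± 0.68 at 12 weeks (adjusted p = 0.179), from 38.0 ± 10.9 to 3.54 ± 4.11 CPM. It was called at 12 weeks with the replicate number as a block (-2.84 ± 0.56, adjusted p = 0.0162, with 0.767% of genes called) and by DESeq2 (-3.31, adjusted p = 0.0077, with 0.186%), and 1 of the fits that left out a library called it (without DN female replicate 2 of 6 weeks, adjusted p = 0.0231). Within the larger set it was -2.69 (adjusted p = 0.2205). In the cluster of 497 cells Fmod was 98.6 ± 21.9 CPM in 127 control cells and 12.5 ± 10.9 CPM in 82 DN cells at 12 weeks (SD, n = 3 each), so the low level in DN was also present within the cluster of the class that holds most of the gene. Outside the class, an unnamed cluster of 1251 cells, 926 of them DN, held 6.30 CPM of Fmod with a UMI in 5.84% of its cells. It does not enter these values.

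**Figure D4:**
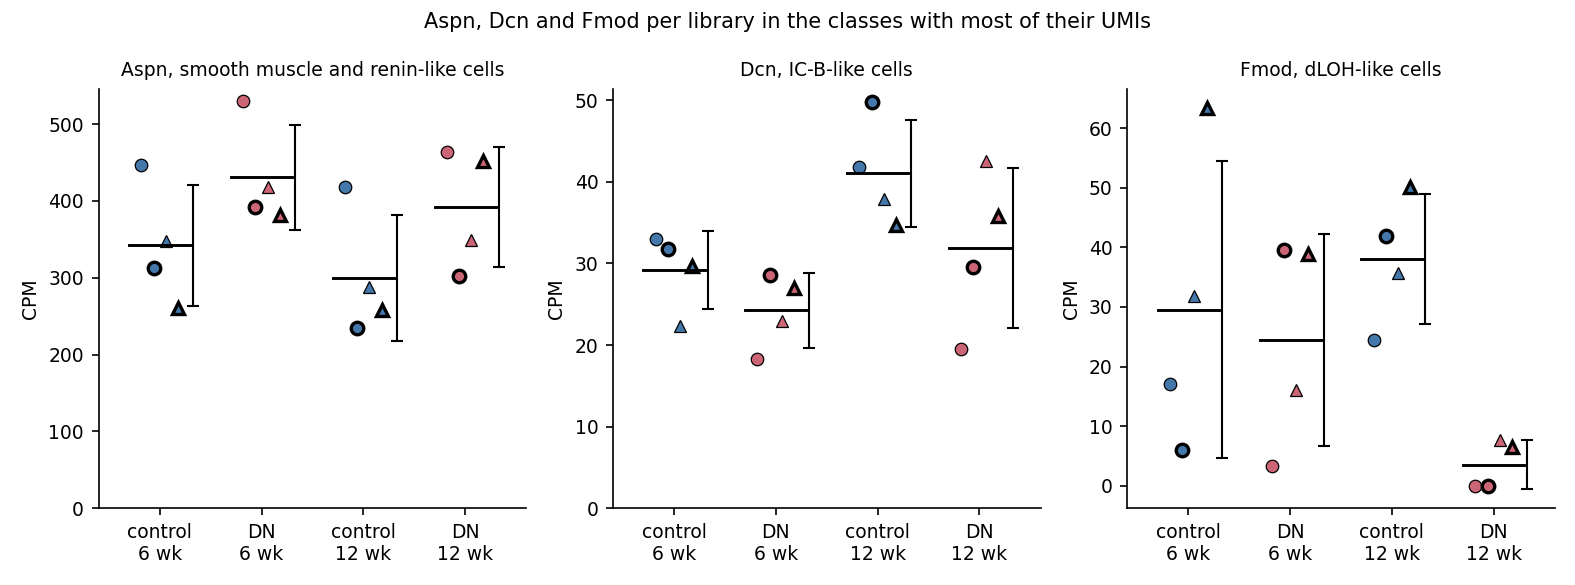
CPM in each library (linear axes from 0) of Aspn in smooth muscle and renin-like cells, Dcn in type B intercalated-like cells and Fmod in descending loop-of-Henle-like cells; bars are means, whiskers the SD, circles female and triangles male mice, thick outlines replicate 2. Among these, Fmod at 12 weeks alone separates the genotypes, with 24.4 to 50.2 CPM in control and 0 to 7.64 CPM in DN.

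Prelp (ENSMUSG00000041577.5, chr1:133910304-133921414, minus strand), which links basement membranes to the collagen around them, was too scarce to be tested in any class. Of its 316 UMIs, 147 were in mesangial-like and 107 in smooth muscle and renin-like cells. Levels were 6.12 ± 5.10 CPM (SD, n = 16; 0 to 18.0) in the former and 7.94 ± 7.27 CPM (0 to 27.0) in the latter. In mesangial-like cells the group means were 6.83 and 7.09 CPM at 6 weeks and 2.21 and 8.34 CPM at 12 weeks in control and DN, and the cells with a fibroblast UMI held 23 of the 27 control UMIs and 49 of the 120 DN UMIs. The antisense gene Gm15851 overlaps Prelp and had 2 UMIs. Without those cells Prelp was at 0 in all 4 control libraries and at 2.88 to 8.004 CPM in the DN libraries at 6 weeks, and at 0 to 1.70 and 0 to 7.18 CPM at 12 weeks. These are values on few molecules, from the contrast that chose the gene, and were not tested.

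No change with age was called for a member in mesangial-like cells. The low-count filter kept 4 of the 6 members there (Ogn, Dcn, Bgn and Aspn). Genotype differences were called for 0.19% of 9497 genes at 6 weeks and 2.77% at 12 weeks (18 and 263 genes), which are given as the background and not as a test of the members. The DN difference at 12 weeks minus that at 6 weeks was called for 0% of genes (0 by edgeR and 0 by DESeq2, with 152 at an unadjusted p under 0.05). That difference was -0.29 ± 0.79 for Ogn, 0.43 ± 0.71 for Dcn and 0.22 ± 0.23 for Bgn on the log2 scale (adjusted p = 1 for each), with a 95% interval of -1.85 to 1.27 for Ogn. The sign for Ogn was not stable, with 0.293 without the cells holding a fibroblast UMI and -0.76 to 0.34 without 1 library.

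From 6 to 12 weeks in control mice 0 genes were called by edgeR or DESeq2 (290 at an unadjusted p under 0.05), and in DN mice also 0 (237). The log2 difference of Ogn was 0.03 ± 0.69 in control and -0.26 ± 0.40 in DN, and that of Dcn -0.95 ± 0.52 and -0.52 ± 0.47 (edgeR, adjusted p = 1 for each). The sign for Dcn was not stable either, with 0.0112 in control and 0.236 in DN without the cells holding a fibroblast UMI. For Ogn in smooth muscle and renin-like cells it was -0.20 ± 0.26 in control and -0.45 ± 0.28 in DN (adjusted p = 1 for both), and 0 genes were called there by edgeR or DESeq2 (177 and 259 at an unadjusted p under 0.05). The DN difference of Ogn in females minus that in males was 1.02 ± 0.79 in mesangial-like cells (adjusted p = 1) and turned to -0.335 without cells holding UMIs of other types, where 0 genes were called for sex by either tool (157 at an unadjusted p under 0.05).

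Genes that act with these proteoglycans were counted from lists in the same mesangial-like cells, where the median log2 difference of all genes was -0.0057 at 6 weeks and -0.0037 at 12 weeks, and no gene of any list was called at 6 weeks without the replicate block. The block called 3.59% of all genes at 6 weeks and 11.9% at 12 weeks, against 0.19% and 2.77% without it, and the counts of each list are read against these shares. The lists were chosen with earlier results of these data known, so their counts are a description and no independent support. At 6 weeks the block called 6 of the 24 tested collagen genes, 2 of 12 other proteoglycans, 2 of 14 stress genes, 1 of 19 chondroitin and dermatan sulfate genes and 1 of 6 receptors, all higher in DN. Of 13 other small leucine-rich proteoglycans 2 were tested and neither was called. Lum, given below, is also among the fibroblast UMI genes. By that definition all its UMIs in mesangial-like cells lay in cells with a fibroblast UMI. Ecm2, which lies 11654 bases from Aspn, was 17.4 ± 3.38 CPM in control and 26.8 ± 10.8 CPM in DN at 12 weeks (edgeR, adjusted p = 0.192; 0.0104 with the replicate block). Lum, the keratan sulfate proteoglycan lumican, 46985 bases from Dcn, was at 0 to 1.69 CPM in control and 0 to 41.8 CPM in DN at 12 weeks (means 0.635 and 13.2, adjusted p = 0.194; 0.0073 with the block), with 274 UMIs in all. At 6 weeks it was at 0 to 37.1 and 0 to 81.6 CPM (means 16.8 and 27.7, adjusted p = 1, 0.856 with the block), so control at 6 weeks averaged more than DN at 12 weeks.

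Of 24 genes that build chondroitin and dermatan sulfate chains 19 were tested and 1 was higher in DN at 12 weeks, with a list median of 0.27, a count too small to set the list apart from the 2.77% of all genes. It was Chst15, which sulfates chondroitin chains, at 87.1 ± 13.7 and 183 ± 31.6 CPM (edgeR, log2 difference 1.10 ± 0.25, adjusted p = 0.0235). Of 7 keratan sulfate genes 3 were tested (B4galt1, Chst2 and B4galt4) and none was called, with a median of -0.29. With the replicate block 3 of the 19 chondroitin and dermatan sulfate genes were higher, against 11.9% of all genes called.

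Of 29 fibrillar collagen and collagen assembly genes, the partners of these proteoglycans, 24 were tested and 6 were higher in DN at 12 weeks, with a list median of 1.10 (15 with the replicate block). Col12a1, a collagen on the surface of fibrils, went from 46.2 ± 18.8 to 393 ± 190 CPM (edgeR, log2 difference 3.04 ± 0.52, adjusted p = 0.0034). Col5a3 was at 0 to 1.69 CPM in control and 2.36 to 13.95 CPM in DN. Its difference of 3.07 ± 0.56 (edgeR, adjusted p = 0.0049) thus rests on few control molecules. Col14a1, at 6.46 ± 3.06 and 35.7 ± 29.9 CPM, differed by 2.77 ± 0.69 (adjusted p = 0.0393). Plod2, which hydroxylates collagen lysines, differed by 0.94 ± 0.21 (adjusted p = 0.0215). The sum of 5 smooth muscle and renin markers given above had medians of 145 CPM in control and 797 CPM in DN at 12 weeks. Within it Ren1 averaged 88.5 and 364 CPM. The sum of the 9 fibroblast UMI genes had medians of 17.1 and 22.4 CPM. Both sums overlapped between the genotypes at that age, and the part of either in these differences was not tested.

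Of 17 TGF-beta genes 14 were tested and 1 was lower at 12 weeks, again near the background, Ltbp4, which tethers latent TGF-beta (26.2 to 10.3 CPM, edgeR, log2 difference -1.401 ± 0.36, adjusted p = 0.0460). Tgfb1 itself had a log2 difference of 0.33 (adjusted p = 0.717). Of 12 receptors for these proteoglycans 6 were tested and 1 was higher, Tlr4, a receptor of soluble Bgn, at 45.6 to 64.2 CPM in control and 111 to 179 CPM in DN (log2 difference 1.30 ± 0.30, adjusted p = 0.0227). None of 12 tested genes of 16 in the list of other proteoglycans was called, nor any of 14 tested genes of 15 in the list of dissociation stress genes, whose medians at 12 weeks were 0.41 and 0.39. With the replicate block 3 of 6 receptors, 3 of 12 other proteoglycans and 5 of 14 stress genes were higher at 12 weeks, and of 14 TGF-beta genes 2 were higher and 1 lower.

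The genes whose level followed a member most closely were ranked by Pearson's correlation over the 16 mesangial-like sums among 9496 genes, as a description: the sums share their library and depth, and both genotypes enter. For Ogn they were A730049H05Rik (0.932), Tspan2 (0.930), Fstl1 (0.906), Susd2 (0.892) and Anxa3 (0.890), which stood at 0.912, 0.927, 0.895, 0.907 and 0.892 within the larger set of libraries. For Bgn they were Snai2 (0.883), Susd2 (0.880), Gulp1 (0.879), Lrrc32 (0.863) and Cd248 (0.858), at 0.875, 0.859, 0.838, 0.818 and 0.856 within the larger set. For Dcn they were Dym (0.796), Fn1 (0.790), Scap (0.787), Tmem50b (0.780) and Guca2b (0.776), and within the larger set these were 0.704, 0.899, 0.605, 0.548 and 0.573, so that Fn1 alone did not fall. Among the members themselves the correlation was 0.731 for Ogn and Dcn, 0.686 for Ogn and Bgn and 0.442 for Dcn and Bgn.

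Other members of the family, named here after their values were seen, had sites of their own. Optc, opticin, which lies 2305 bases from Prelp, had 469 UMIs with 96.0% in smooth muscle and renin-like cells. Nepn had 15917 UMIs with 90.6% in proximal tubule-like cells, Podn had 3890 with 44.2% in descending loop-of-Henle-like cells, and Omd, 15224 bases from Ogn and 14897 from Aspn, had 412 UMIs with 60.2% in proximal tubule-like cells. Lum had 274 UMIs with 91.2% in mesangial-like cells. Lum is itself among the fibroblast UMI genes given above. By that definition its mesangial-like UMIs all lay within the 44 of 4091 cells with a fibroblast UMI. Lum is therefore not shown to be a gene of mesangial-like cells at large.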

How the data were processed

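Glomerulus-enriched kidney cells of 16 mice were sequenced as 10x 3′ libraries (v2 or v3 chemistry, which library had which is not given in the sources used here). The authors ran Cell Ranger 3.0.2 on the mm10 3.0.0 reference and deposited raw UMI counts per gene and cell. Whether counting used strand is not given in the sources used here. In its single-cell data the study tested single cells, and it also compared bulk libraries of sorted glomerular cell types, which are not used here. For this report counts were summed per library and class, so that the mouse was the replicate.

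Cells with 200 to 7000 genes and at most 50% mitochondrial UMIs were kept (94436). They were clustered with scanpy 1.11.5 and leidenalg 0.10.2 (2000 variable genes, 30 components, 20 neighbours, resolution 1) and clusters were named from marker lists. The naming thresholds were set after the clusters were seen. Cells with markers of 2 lineages were removed as doublets (8493; Scrublet marked 1857), as were 968 non-tubular cells above 20% mitochondrial UMIs. Clusters that fitted no class stayed unnamed (12195 cells).

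Sums of at least 10 cells were tested by edgeR 4.0.16 quasi-likelihood fits in R 4.3.3 (TMM scaling, minimum count 10), each class fitted on its own with terms for age, for sex at each age and for genotype at each age, with Benjamini-Hochberg adjustment over all genes of the class and a threshold of 0.05. An SE is the absolute log2 difference over the square root of F. On simulated data for mesangial-like cells at 12 weeks (9293 genes), 53 of 98 genes changed by 1 on the log2 scale and 99 of 99 changed by 2 were recovered, with 9 false calls. The same replicate number is shared by groups in the labels, and deviations from the group means correlated within each pair (0.286 to 0.483 in mesangial-like and 0.264 to 0.433 in smooth muscle and renin-like cells), so the numbers were taken to pair the mice and the fit with a replicate block is given where it changes a call. The labels state no pairing. With 2 mice per group, exchanging the replicate numbers of a group would only turn the sign of such a correlation. The pairing was also taken from these same data, so the calls of the block fit rest on an assumption that was not tested. In females replicate 1 is also the set of 4 smaller libraries, so pairing and library set cannot be told apart there. Male values alone were 0.286 and 0.469 in mesangial-like and 0.295 and 0.264 in smooth muscle and renin-like cells at 6 and 12 weeks. DESeq2 1.42.0, other scalings, filters, cluster resolutions, doublet rules, a term for the 2 sets of libraries told apart by shared barcodes, the larger set alone and leaving out each library were the alternatives.

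The members and gene lists were chosen with earlier results of these data known. Named genes are the 6 members, the other small leucine-rich proteoglycans that passed the filter or lie within 100 kb of a member, up to 4 genes of each further list with the lowest adjusted p at 12 weeks in mesangial-like cells, and for Ogn, Dcn and Bgn the 5 genes of highest correlation of log2(CPM + 1). Others are markers or leading genes given beside a result. The 3′ UMIs are not compared between genes as levels. Intervals and limits from counts of 0 cover counting error only. Of the gene symbols 30934 of 31053 matched the GRCm38 annotation. Promoters are RefSeq sequences (GRCm38.p6) and 5 of 6 members matched. Clusters rebuilt here need not equal the study's cell types, and 1 further podocyte marker is not named here.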

Additional observations from a re-analysis of the deposited data

Results flagged for a closer look

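The direction of the Ogn difference between DN and control was opposite in the 2 mural classes at both ages. At 6 weeks the log2 difference was 3.24 in mesangial-like cells and -1.11 in smooth muscle and renin-like cells, and at 12 weeks it was 2.95 and -1.37. Every DN mouse lay above its control partner of the same sex and replicate number in mesangial-like cells, and below it in smooth muscle and renin-like cells. The difference between the classes was not tested, the mesangial-like values chose the gene, and the smooth muscle and renin-like value at 6 weeks missed the threshold without a replicate block. No library stood apart from the rest of its group by Dixon's test in the 41 groups of 4 libraries looked at, where chance gives about 5%.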

How the results depend on the processing

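Of the results recomputed without 1 library at a time, 525 kept their direction and side of the threshold or moved little, 29 moved, 9 reversed, 8 lost and 1 gained a call. Under the other alternatives 441 were kept, 73 moved, 12 reversed, 29 gained and 2 lost a call. The causes were not tested. Depth limits Prelp, Fmod at 12 weeks and the control level of Ogn in mesangial-like cells. The replicate block could not estimate a change with age and changed no call of a member beyond those given above.

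The log2 difference of Ogn in mesangial-like cells was 4.19 without the shallow cluster at 6 weeks, and at 12 weeks 4.30 without cells holding UMIs of other types, 4.25 at a cluster resolution of 1.6, 4.23 without fibroblast-UMI cells and 4.23 without the shallow cluster. Its 12-week minus 6-week difference was 0.503, 0.280, 0.293 and 0.0418 under the latter 4, and to between -0.76 and 0.34 without 1 library, and its sex difference to -0.335 without cells holding UMIs of other types. The age change of Ogn in DN ranged from -0.95 to 0.14 without 1 library. In smooth muscle and renin-like cells Ogn at 6 weeks was called at -1.08 with no count filter, -1.07 with the replicate block, -1.11 with the 2 sets of libraries as a term and -1.07 in the larger set, and at 12 weeks lost its call at -1.22 without fibroblast-UMI cells and at -1.22 in cells of low Ren1, with -1.62 to -1.22 without 1 library. Bgn there at 6 weeks turned to -0.0149 at resolution 1.6 and -0.0229 without fibroblast-UMI cells. The age change of Dcn in mesangial-like cells turned to 0.0112 in control without fibroblast-UMI cells and to 0.00937 without the shallow cluster, and in DN to 0.74 without cells of other-type UMIs, 0.24 without fibroblast-UMI cells and 0.30 without the shallow cluster. Fmod at 6 weeks ranged from -0.87 to 0.30 without 1 library.

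Genes called in mesangial-like cells at 12 weeks (263) were 599 with no filter, 1133 with the replicate block, 532 with the library set as a term, 171 without other-type UMIs and 110 to 303 without 1 library. At 6 weeks (18) they were 11 with library totals, 95 with DESeq2, 228 with no filter, 341 with the block, 111 with the library set as a term, 36 in the larger set, 4 without other-type UMIs, 33 at resolution 1.6, 30 without fibroblast-UMI cells, 29 without the shallow cluster and 0 to 38 without 1 library. The interval between ages had 26 calls with no filter and 3 with the block, sex 18 and 11, and age 80 in control and 57 in DN with no filter. In smooth muscle and renin-like cells at 12 weeks (18) there were 53 with DESeq2, 148 with no filter, 305 with the block, 133 with the library set as a term, 89 in the larger set, 3 in renin-rich cells and 8 to 37 without 1 library. At 6 weeks (2) there were 4, 32, 65, 18 and 16 under the first 5 of these, 4 below and 4 above the renin limit and 1 to 6 without 1 library. Age had 15 calls in control and 14 in DN with no filter, 1 in control in renin-rich cells, 3 in DN in the larger set and 0 to 2 in DN without 1 library. The remaining classes had 1308 calls with the block and 235 with DESeq2 at 6 weeks, and 2779 and 593 at 12 weeks.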
